A study of Mus musculus with 4 samples.

Results

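The Notch pathway genes described here are the receptors Notch1, Notch2 and Notch3, the ligands Dll1, Dll3 and Jag1, and the transcriptional regulators Hes1, Hes5, Hes6 and Hey1. These 10 genes were taken by name, 10 of 27612 genes listed in any table of the series. No rule on their values chose them, but earlier results of these data were known when they were chosen. They were followed in 4 neural stem cell (NSC) lines made from mouse epiblast stem cells (EpiSCs, strain 129/Sv) under differential Wnt signal inputs. Growing cells were dissociated, stored in a preservative and captured on a BD Rhapsody cartridge, with 1 library for each line.

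All 4 lines were kept in EGF and FGF2 at 10 ng/ml each. XN4 and XN1 received in addition 10 µM XAV939, a tankyrase inhibitor that lowers canonical Wnt signaling, from different suppliers. According to the study, the batch given to XN1 formed crystals in the medium, so that the dissolved dose may have differed from that of XN4. KN1 received no further addition, and CN4 received 2 µM CHIR99021, a GSK3 inhibitor that raises Wnt signaling. The study derived all 4 from 1 EpiSC line, XN1 and KN1 in one experiment and XN4 and CN4 in another, by different people. Each line is 1 culture and 1 library, so that the line, the culture condition, the derivation experiment and the library cannot be told apart, no test between lines was possible, and every interval below covers counting error only. Because the tables hold reads and not molecular identifiers, copies of 1 molecule can be counted more than once, which the intervals on reads do not include.

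In the Notch pathway, a ligand on 1 cell binds a receptor on its neighbor. The receptor is then cleaved, and its intracellular domain enters the nucleus, joins the DNA-binding protein Rbpj and activates Hes and Hey genes, which repress proneural genes. In the embryonic CNS, cells that express Delta-like ligands tend to begin differentiation, while neighbors with active Notch receptors stay progenitors.

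The levels below are RPM, reads per 1000000 reads in the cells of the normalized table of a line, ribosomal protein and mitochondrial genes left out. These tables held 3927 cells of XN4, 3905 of XN1, 3975 of KN1 and 3448 of CN4, with a median of 4637 to 7796 reads per cell. A cell was counted as having captured a gene from 1 read upwards. Where shares of cells with a Notch pathway gene were compared between lines, each cell was thinned to 3200 reads. This left out 541 cells of XN4, 774 of XN1, 579 of KN1 and 289 of CN4. Shares of cells with a marker gene, and shares with at least 2 reads, were taken without thinning. Between 37 and 320 cell barcodes were shared by a pair of libraries, at most 2.36% of the smaller set.

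The label "neural stem cell line" was compared with marker genes first. Of 12 neural progenitor markers, 12 in CN4, 8 in KN1 and 11 in XN1 were captured in at least 10% of cells, compared with 4 in XN4. Sox2, which marks neural progenitors, was captured in 0.560% of XN4 cells, 62.2% of XN1 cells, 13.9% of KN1 cells and 83.9% of CN4 cells. Fabp7 and Sox3 were at 0 reads in XN4. In contrast, 10 of 12 mesenchymal markers were captured in at least 10% of XN4 cells, with Col3a1, a fibrillar collagen gene, in 97.8%. Col3a1 was captured in 0.154% of XN1 cells, 1.23% of KN1 cells and 0.812% of CN4 cells. The summed level of the mesenchymal list was 9001 RPM in XN4 and between 27.7 and 297 in the other lines, and that of the neural progenitor list was 1637 in XN4 and between 5429 and 11520 elsewhere. The data thus go against the neural label for the library labelled XN4, and its part in the differences of Notch pathway genes from the other lines was not tested.

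The KN1 library also stood apart. After thinning, its cells held a median of 764 genes, compared with 1650 to 1847 in the other lines. Each capturing KN1 cell held 3.42 to 8.19 reads of a Notch pathway gene on average, compared with 1.16 to 3.58 in the other lines. Genes at least 2-fold higher in KN1 than in XN1 spanned a median of 78.3 kb of genome, and those at least 2-fold lower spanned 17.5 kb, compared with 28.8 kb over all genes tested. Therefore, levels and shares of cells can give KN1 different ranks. Both are given for the Notch pathway genes described here, and levels only for other genes of the pathway. The part of these features in the KN1 values was not tested.

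Of the 10 genes, 8 had an entry among the RefSeq promoter sequences (GRCm38.p6, from 250 bases before to 50 bases after a start site). Hes1 and Hey1 had none. The promoters of Hes5, Dll1, Dll3 and Hes6 are shown because these genes differed most in level among the lines or were captured together in the cells of CN4. Capitals mark GTGGGAA, the core letters recognized by Rbpj, and CAGCTG, an E-box that proneural factors can bind, searched on both strands without overlap between the motifs.
Hes5 promoter, chr4:154960673-154960972, plus strand: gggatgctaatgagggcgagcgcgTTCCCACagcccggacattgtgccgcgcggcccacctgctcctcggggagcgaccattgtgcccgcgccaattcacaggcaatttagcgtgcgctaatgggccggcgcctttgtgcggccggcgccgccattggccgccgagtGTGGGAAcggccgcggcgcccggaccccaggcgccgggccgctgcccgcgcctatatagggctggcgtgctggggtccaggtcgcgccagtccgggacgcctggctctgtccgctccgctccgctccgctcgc
Dll1 promoter, chr17:15376883-15377182, minus strand: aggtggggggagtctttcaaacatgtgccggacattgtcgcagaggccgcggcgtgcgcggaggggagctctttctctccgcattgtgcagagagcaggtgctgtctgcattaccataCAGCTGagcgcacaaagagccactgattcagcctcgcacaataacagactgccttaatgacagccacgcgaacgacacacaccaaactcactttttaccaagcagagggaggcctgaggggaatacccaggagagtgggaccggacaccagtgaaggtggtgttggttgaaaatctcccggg
Dll3 promoter, chr7:28301736-28302035, minus strand: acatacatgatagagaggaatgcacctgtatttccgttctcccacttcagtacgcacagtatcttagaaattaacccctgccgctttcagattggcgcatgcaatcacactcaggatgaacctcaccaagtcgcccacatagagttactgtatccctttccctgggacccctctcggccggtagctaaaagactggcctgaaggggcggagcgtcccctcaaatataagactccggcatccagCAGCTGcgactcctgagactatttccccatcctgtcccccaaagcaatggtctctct
Hes6 promoter of the upstream start site, chr1:91413989-91414288, minus strand: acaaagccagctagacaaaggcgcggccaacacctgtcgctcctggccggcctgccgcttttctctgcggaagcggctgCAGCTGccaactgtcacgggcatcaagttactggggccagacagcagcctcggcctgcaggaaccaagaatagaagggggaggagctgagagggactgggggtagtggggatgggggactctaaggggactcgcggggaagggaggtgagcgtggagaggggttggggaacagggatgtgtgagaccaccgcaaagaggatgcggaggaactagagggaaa
Hes6 promoter of the downstream start site, chr1:91413173-91413472, minus strand: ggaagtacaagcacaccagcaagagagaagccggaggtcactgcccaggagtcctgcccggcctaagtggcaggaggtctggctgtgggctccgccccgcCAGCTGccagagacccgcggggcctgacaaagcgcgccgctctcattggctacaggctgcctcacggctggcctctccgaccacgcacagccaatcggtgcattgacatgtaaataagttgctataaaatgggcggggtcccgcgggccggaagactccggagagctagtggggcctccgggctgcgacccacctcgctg
The Hes5 promoter held 2 matches to GTGGGAA, at 226 and 83 bases before the start site, and was the only one of the 10 promoters of these genes with this motif, which 6.38% of all 32851 promoters held. CAGCTG was present in 5 of the 10, those of Dll1, Dll3, Jag1 and Hes6 (both start sites), compared with 16.3% of all promoters. A second Dll1 start site had no match to either motif. These matches describe letters in 300 bases and do not show binding.

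The receptors, which are single-pass membrane proteins, were present in every line. Notch1, on chromosome 2 (26457903 to 26516663, GRCm38, GENCODE M21), was at 426 RPM in CN4, 268 in KN1, 208 in XN1 and 52.6 in XN4. It was thus lowest in XN4 and highest in CN4, with an 8.09-fold difference between them and no overlap of the intervals between any neighbors in this order. Of the thinned cells, 64.7% of CN4 (95% exact binomial interval 63.0% to 66.3%), 43.2% of XN1 (41.5% to 45%), 21.3% of KN1 (19.9% to 22.7%) and 11.5% of XN4 (10.4% to 12.6%) had captured Notch1. By shares of cells, KN1 was placed below XN1.

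Notch2 (chromosome 3, 98013527 to 98150361) was at 75.9 RPM in CN4, 98.0 in KN1, 63.6 in XN1 and 55.0 in XN4. The highest and lowest lines differed by 1.78-fold, less than the 2-fold used throughout. Of the thinned cells, 18.5% of CN4, 16.6% of XN1, 12.7% of XN4 and 9.69% of KN1 had captured Notch2, so that KN1 was highest by level and lowest by share. Notch3 (chromosome 17, 32120820 to 32166852) was at 106 RPM in CN4, 57.1 in KN1, 86.7 in XN1 and 84.0 in XN4. The intervals of XN1 and XN4 overlapped, and no pair of lines differed by 2-fold. Thus, XN4 had Notch2 and Notch3 at levels near those of XN1 and only Notch1 at a level 3.95-fold lower. Notch3 was captured in 24.1% of thinned CN4 cells, 20.7% of XN1 cells, 18.1% of XN4 cells and 6.80% of KN1 cells. It was the most often captured receptor in XN4, while Notch1 was the most often captured in XN1, KN1 and CN4.

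The Delta-like ligands varied widely among the lines. Dll1 (chromosome 17, 15367354 to 15376872), which activates Notch receptors on neighboring cells, was at 39.4 RPM in CN4, 13.8 in KN1, 6.27 in XN1 and 0.288 in XN4 (12 reads in 5 cells). The difference between CN4 and XN4 was 137-fold. After thinning, Dll1 was captured in 9.02% of CN4 cells (8.05% to 10.1%), 1.68% of KN1 cells, 1.53% of XN1 cells and 0.0886% of XN4 cells, and the intervals of KN1 and XN1 overlapped. Dll3 (chromosome 7, 28293553 to 28302238), a divergent Delta-like protein that acts within the expressing cell, was at 26.4 RPM in CN4, 4.10 in KN1, 2.70 in XN1 and 0.625 in XN4. CN4 was 6.44-fold above KN1, the next line, whereas the intervals of KN1 and XN1 overlapped. After thinning, Dll3 was captured in 6.62% of CN4 cells, 0.671% of XN1 cells, 0.618% of KN1 cells and 0.207% of XN4 cells.

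Jag1 (chromosome 2, 137081456 to 137116644), a ligand of the Serrate type, had another order. It was at 47.4 RPM in CN4, 18.4 in KN1, 16.9 in XN1 and 33.9 in XN4. XN4 had the second highest level of Jag1 and the lowest of both Delta-like ligands, and it was 2.01-fold above XN1. This value lay at the 2-fold limit and was 1.84-fold with median-of-ratios scaling. After thinning, Jag1 was captured in 8.33% of XN4 cells, 4.66% of XN1 cells, 1.88% of KN1 cells and 11.9% of CN4 cells, and no intervals overlapped.

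Among the regulators, Hes5 separated the lines most. Hes5 (chromosome 4, 154960923 to 154962371), a repressor of proneural genes, was at 77.8 RPM in CN4, 56.2 in KN1, 10.3 in XN1 and 0 in XN4. No Hes5 read was present in any of the 8741 XN4 cells in the full table, which, at the limit of 3 cells that a count of 0 allows, leaves a share of up to 0.0343% of cells with a read. Taking 3 reads in the XN4 library as the limit that a count of 0 allows, Hes5 was at least 142-fold higher in XN1 and at least 1079-fold higher in CN4. After thinning, the share of cells with Hes5 was 17.0% in CN4 (15.7% to 18.3%), 6.54% in KN1 (5.73% to 7.42%) and 2.59% in XN1 (2.06% to 3.21%). Level and share therefore ordered the 4 lines alike for Hes5.

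Hes1 (chromosome 16, 30064384 to 30067796), the most widely expressed Hes repressor, was at 157 RPM in CN4, 101 in KN1, 157 in XN1 and 77.4 in XN4. XN1 and CN4 did not differ beyond their counting intervals, and XN4 was 2.03-fold below each, at the 2-fold limit. Hes1 was captured in 14.9% of thinned XN4 cells, 33.5% of XN1 cells, 9.63% of KN1 cells and 30.3% of CN4 cells. The XN4 library, without Hes5, thus held Hes1 in more of its cells than the KN1 library did, although its level was 1.30-fold lower. By share, 56.3% of all genes tested for this pair were at least 2-fold higher in XN4, so that this order was not particular to Hes1.

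Hey1 (chromosome 3, 8663359 to 8667256), a related repressor, was at 71.1 RPM in CN4, 17.6 in KN1, 11.5 in XN1 and 0.601 in XN4 (25 reads). CN4 was 4.04-fold above KN1 and 118-fold above XN4. Hey1 was captured in 16.9% of thinned CN4 cells, 3.13% of XN1 cells, 2.21% of KN1 cells and 0.177% of XN4 cells, so that KN1 was below XN1 by share. Hes6 (chromosome 1, 91411483 to 91414038), which opposes Hes1 and favors neuronal differentiation, was at 79.3 RPM in CN4, 44.99 in KN1, 36.7 in XN1 and 16.1 in XN4. Unlike Hes5 and Hey1, it was captured in a sizeable share of thinned XN4 cells, 4.28% (3.63% to 5.02%). The shares in the other lines were 20.5% in CN4, 9.997% in XN1 and 5.77% in KN1.

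**Figure D1:**
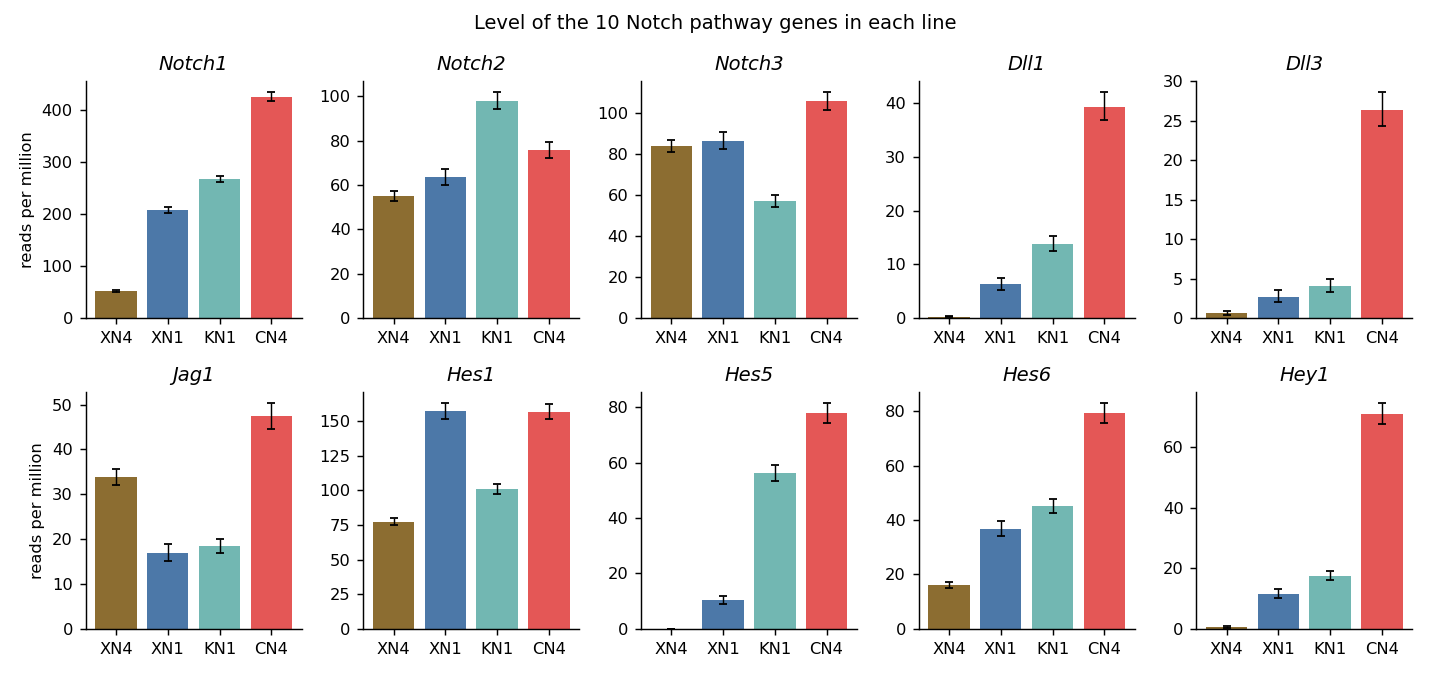
Level of each Notch pathway gene in RPM (vertical axes, each with its own scale from 0) in XN4, XN1, KN1 and CN4; bars are pooled levels of 1 library and whiskers are exact 95% Poisson intervals of the reads. CN4 has the tallest bar for all genes but Notch2 and Hes1, and Hes5 has no bar in XN4.

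The order XN4, XN1, KN1, CN4 from the lowest to the highest level held for 6 of the 10 genes, Notch1, Dll1, Dll3, Hes5, Hes6 and Hey1. Of 11345 genes with at least 10 RPM in 1 line, 3.61% had this order. By shares of thinned cells, only Dll1 and Hes5 kept the order, against 2.17% of all genes. With KN1 left out, XN4 was lowest, XN1 between and CN4 highest for 8 of the 10 genes by level (22.8% of genes) and for the same 8 by share of cells (28.3% of genes), with Jag1 and Hes1 as the exceptions. Of these 8, Dll1 and Dll3 reached 10 RPM only in CN4 among these lines, so that their highest level was fixed by this limit. For Notch3, the intervals of XN4 and XN1 overlapped by level and by share, so that their order was not resolved. CN4 had the highest level of 8 genes, compared with 23.1% of all genes, and the highest share of cells of 9, compared with 36.1%. Dll3 reached 10 RPM only in CN4, so that its highest level there was fixed by this limit. Dll1 reached it only in KN1 and CN4, and Hes5 and Hey1 did not reach it in XN4, so that they could not be highest elsewhere. XN4 had the lowest level of 8, compared with 23.3%, and the lowest share of cells of 6, compared with 13.2%. KN1 had the lowest share of the other 4, compared with 72.4% of all genes.

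**Figure D2:**
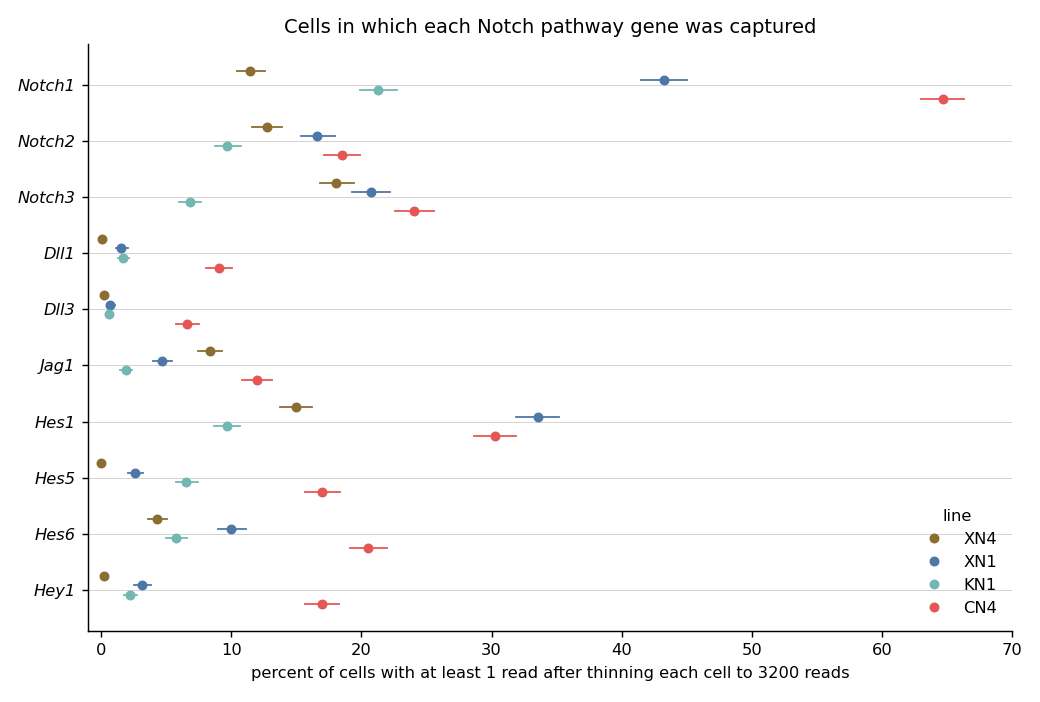
Percent of cells with at least 1 read of each gene (horizontal axis) after thinning each cell to 3200 reads, in the 4 lines; points are shares and bars are exact 95% binomial intervals. CN4 lies farthest right for every gene but Hes1, and KN1 lies left of XN1 for Notch1 (21.3% and 43.2%) although its level is higher.

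For each pair of lines, genes were counted as different at 2-fold or more among those with at least 10 RPM in 1 of both lines. A gene below 10 RPM in 1 line of a pair passed only through the other line and could count only as lower in the first. Below 10 RPM were Dll1, Dll3, Hes5 and Hey1 in XN4, Dll1 and Dll3 in XN1, and Dll3 in KN1. The filter was the same for all genes. For XN1 and CN4, 2 lines with neural markers and tables of the same kind but from different derivation experiments, all 10 genes passed this filter and 7 were at least 2-fold lower in XN1, namely Notch1, Dll1, Dll3, Jag1, Hes5, Hes6 and Hey1, while none was higher. Of all 10141 genes tested, 7.42% were lower in XN1 by this rule and 8.2% were higher. The median log2 difference (XN1 minus CN4) was -1.30 over the 10 genes and -0.11 over all genes. The differences were 9.79-fold for Dll3, 7.58-fold for Hes5, 6.28-fold for Dll1 and 6.17-fold for Hey1. Those of Notch1 and Hes6 were 2.05-fold and 2.16-fold, near the limit. That of Notch1 was 1.91-fold with median-of-ratios scaling and its log2 difference was -0.58 by shares of thinned cells, both below the limit.

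For XN4 and CN4, 7 of 10 genes were lower in XN4 and none was higher, compared with 15.1% of 10682 genes lower in XN4 and 16.8% higher. These 7 were Notch1, Dll1, Dll3, Hes1, Hes5, Hes6 and Hey1. Of them, Dll1, Dll3, Hes5 and Hey1 passed the filter only through CN4, so that their direction was fixed by it. For XN4 and XN1, the pair with XAV939 at the same nominal dose, 8 genes passed the filter, as Dll1 and Dll3 did not. Of these, 5 were lower in XN4 (13.8% of all genes) and 1, Jag1, was higher (17% of all genes). Hes5 and Hey1 passed the filter only through XN1, so that their direction was fixed by it. Notch1 was 3.95-fold, Hes6 2.28-fold, Hes1 2.03-fold and Hey1 19.2-fold lower in XN4. Among thinned cells without G2-M transcripts, the count for this pair was 3 instead of 6, all lower in XN4, where 15.8% of all genes were lower and 20.9% higher. Hes1, Hes6 and Jag1 then lay between 1.90-fold and 1.99-fold. The 3 left were Notch1, Hes5 and Hey1, of which Hes5 and Hey1 had passed the filter only through XN1.

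Counts with KN1 were read against high backgrounds. For XN4 and KN1, 5 of 9 genes were lower in XN4 and none was higher, compared with 20.8% and 24.5% of all genes. Dll1, Hes5 and Hey1 passed the filter only through KN1, so that their direction by level was fixed by it. By shares of thinned cells, 3 of 9 were lower in XN4 and 2, Notch3 and Jag1, were higher, compared with 9.11% and 56.3% of all genes. Notch1 and Hes6 were no longer past 2-fold by share. For XN1 and KN1, 2 of 9, Dll1 and Hes5, were lower in XN1, compared with 23.9% of all genes, a share near the background, and none was higher, compared with 24.1%. Dll1 passed the filter only through KN1. By shares of thinned cells, 4 of 9 were instead at least 2-fold higher in XN1 and 1 was lower, compared with 58.9% and 6.5% of all genes. For CN4 and KN1, Dll1, Dll3, Jag1 and Hey1 of 10 were higher in CN4 and none was lower, compared with 22.8% and 19.9% of all genes. Dll3 passed the filter only through CN4. By shares of thinned cells, 9 of 10 were higher in CN4 and none was lower, compared with 62.4% and 4.53% of all genes, a difference that most genes thus had.

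**Figure D3:**
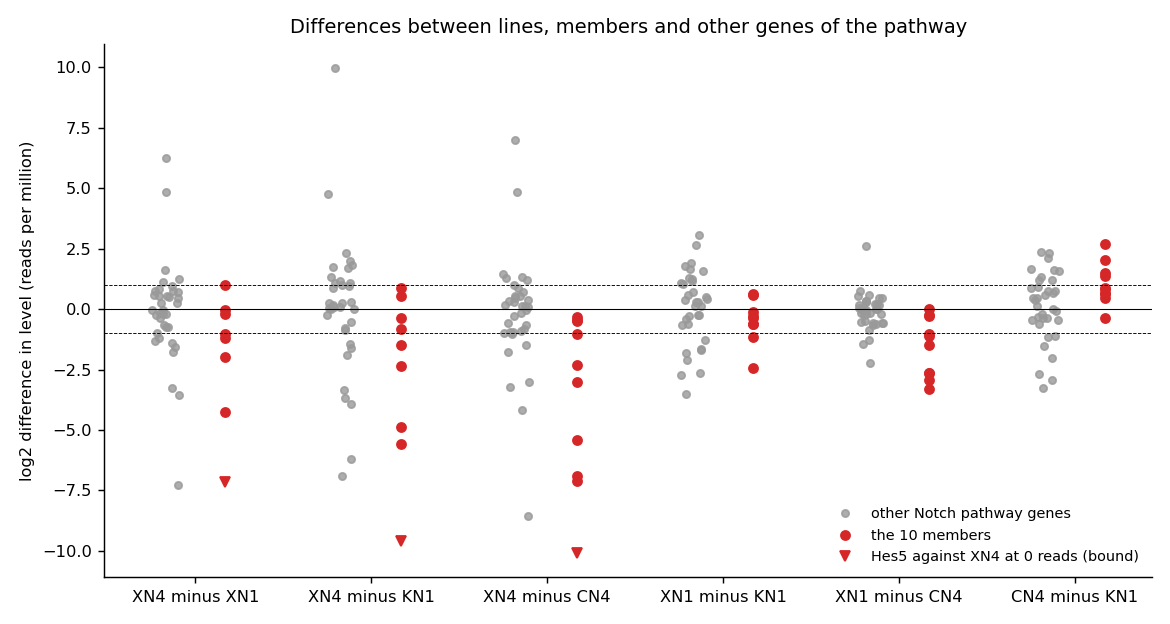
Log2 difference in level (vertical axis) between the lines of each pair (horizontal axis), for the Notch pathway genes described (red) and the other genes of the pathway (gray) with at least 10 RPM in 1 of both lines; dashed lines mark 2-fold and triangles mark bounds for Hes5. In XN1 minus CN4, all but 1 of the 10 red points lie below 0.

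Of 46 other genes of the pathway, the receptor Notch4, the ligand Dll4, modifiers, proteases, cofactors and inhibitors among them, 34 to 36 passed the filter in each pair. Between XN1 and CN4, 3 of 35 were lower in XN1 (7.42% of all genes) and 1 was higher (8.2% of all genes), and their median log2 difference was -0.05. The 3 were Nrarp, Lfng and Dtx1. Between XN4 and CN4, 8 of 36 were lower and 7 higher in XN4 (15.1% and 16.8% of all genes), and the median was 0.11. Neither list is a sample of independent genes, and no test was made between them.

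Nrarp, a target of Notch signaling that limits it, was at 36.2 RPM in CN4, 11.4 in KN1, 14.9 in XN1 and 0.0961 in XN4 (4 reads). Lfng, a glycosyltransferase that modifies Notch receptors, was at 146 in CN4, 188 in KN1, 53.6 in XN1 and 18.2 in XN4. Rbpj, the DNA-binding partner of all Notch receptors, was at 90.3 in CN4, 59.7 in KN1, 80.1 in XN1 and 133 in XN4. XN4 was thus lowest for Nrarp and Lfng and highest for Rbpj.

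The largest differences among the other genes of the pathway were in XN4 or KN1. Dlk1, a Delta-like protein that lacks the domain for binding Notch in the usual way, was at 653.5 RPM in XN4 and at 8.50 in XN1, 0.653 in KN1 and 5.05 in CN4. Notch4 was at 1.09 in CN4, 1.16 in KN1, 1.09 in XN1 and 31.5 in XN4. Endothelial markers, which often accompany Notch4, summed to 9.88 RPM in XN4 and to 4.51 to 15.7 in the other lines, and none of the 6 was captured in 10% of cells. The 7 markers of mural cells summed to 105 RPM in XN4 and to 3.79 to 12.7 elsewhere. Only 1 of the 7 was captured in at least 10% of XN4 cells, and 3 were in fewer than 1%. The 1 was Pdgfrb, a receptor of these and other mesenchymal cells, in 30.2% of XN4 cells and at most 0.203% of the others. The list as a whole thus does not identify mural cells. The part of endothelial or mural cells in the Notch4 level was not tested. Dner, a transmembrane protein with EGF-like repeats, was at 48.8 in CN4, 200.5 in KN1, 32.1 in XN1 and 2.72 in XN4. Neurl1a, a ubiquitin ligase, was at 2.74 in XN4 and 41.7 in KN1, and Aph1b, a subunit of gamma-secretase, was at 71.9 in XN1 and 8.53 in KN1.

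Single cells mostly held few of the 10 genes at this depth. After thinning, a mean of 0.703 of the genes was captured per XN4 cell, 1.37 per XN1 cell, 0.661 per KN1 cell and 2.19 per CN4 cell. None of the 10 was captured in 47.9% of XN4 cells, 21.6% of XN1 cells, 51.2% of KN1 cells and 7.88% of CN4 cells. At least 1 of the receptors was captured in 36.6% of XN4 cells, 61.5% of XN1 cells, 33.2% of KN1 cells and 77.8% of CN4 cells. A receptor and a ligand were captured in the same cell in 19% of CN4 cells (17.7% to 20.4%), compared with 3.16% in XN4, 4.5% in XN1 and 1.53% in KN1. These shares grow with the capture rates of the single genes, and a missing read does not show a missing transcript.

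The capture of pairs of genes in the same cell was then compared with the number of cells given by the capture rates of both genes within 20 strata of like depth. Of the 45 pairs, 45 in CN4, 18 in KN1, 30 in XN1 and 15 in XN4 had at least 20 expected cells. The median ratio of observed to expected cells was 1.02 in CN4, 1.05 in KN1, 1.06 in XN1 and 1.02 in XN4, so that most pairs were captured together about as often as their rates give. In CN4, 3 pairs reached a ratio of 1.5 and 3 were at or below 0.67. Of all pairs of genes with at least 20 expected cells, 0.0922% and 0.378% did so in CN4, 0.161% and 0.327% in XN4, 0.186% and 0.493% in XN1, and 0.236% and 0.76% in KN1. These pairs include genes captured in most cells, whose ratio is bound to lie near 1, so that they are not a like set. In the other lines, no pair did either, but of these 6 pairs only Notch3 with Dll1 and Dll3 with Hes1 had 20 expected cells in XN1, and none had as many in KN1 or XN4, so that 4 of the 6 could be assessed in CN4 only.

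Dll1 and Dll3 were captured in the same cell in 124 CN4 cells, compared with 44.3 expected, a ratio of 2.80 (2.33 to 3.34). Both ligands were also captured with Hes6 more often than expected, with ratios of 1.62 (1.41 to 1.84) for Dll1 and 1.58 (1.33 to 1.85) for Dll3. The ratio of Dll1 with Hes5 was 1.41 (1.19 to 1.65). In contrast, Dll3 was captured with Notch3 in 57 cells, compared with 109 expected (0.522, 0.395 to 0.676), and with Hes1 in 73 cells, compared with 128 expected (0.570, 0.447 to 0.717). For Dll1, the ratios were 0.592 with Notch3 and 0.716 with Hes1. Thus, the Delta-like ligands and Hes6 shared cells of CN4 more often, and the ligands shared cells with Hes1 and Notch3 less often, than their capture rates give.

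The same ratios were computed for the 14709 cells of the CN4 library that were not in its normalized table. The ratio was 3.32 (3.03 to 3.62) for Dll1 and Dll3, 1.55 for Dll1 and Hes6, 1.44 for Dll3 and Hes6, 0.597 for Notch3 and Dll3, and 0.650 for Dll3 and Hes1. These are other cells of the same library, not another culture. Jag1, in contrast to the Delta-like ligands, had ratios of 1.07 with Hes1 and 0.97 with Hey1 in the normalized table, and Notch1 had 1.01 with Hes1, 1.07 with Dll1 and 1.08 with Hes5. Notch2 and Notch3 had 1.01, Hes1 and Hes5 1.08, Hes1 and Hey1 1.01, and Hes5 and Hes6 1.21 (1.08 to 1.35).

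**Figure D4:**
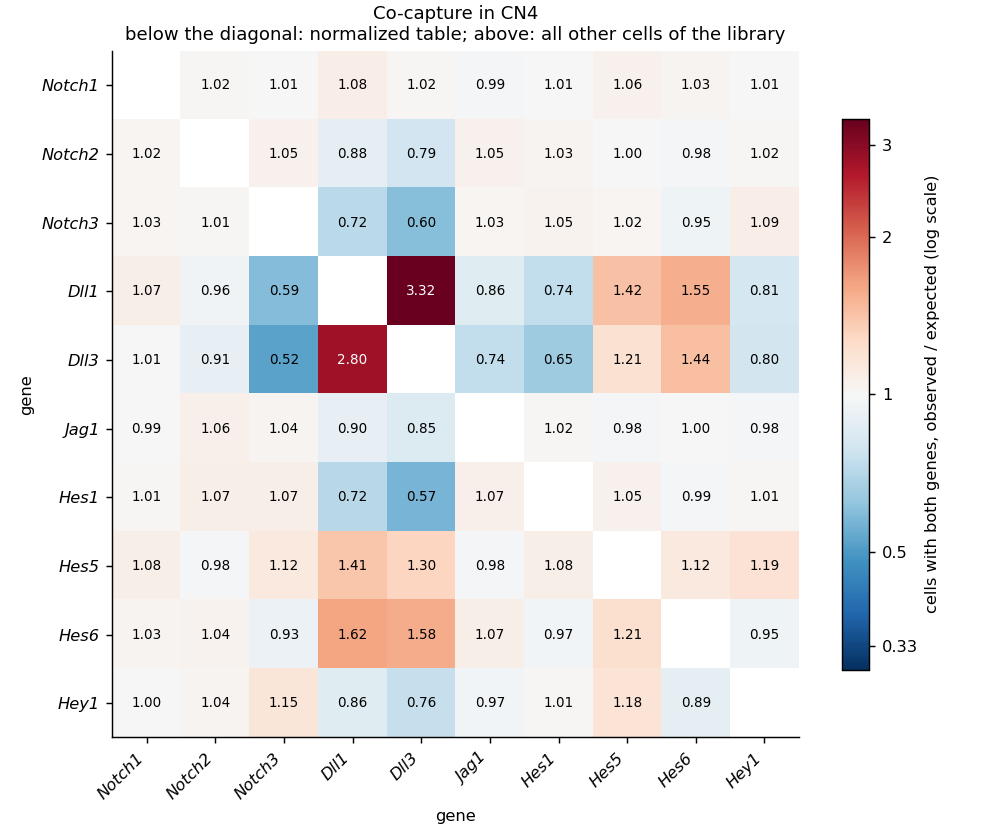
Ratio of observed to expected CN4 cells with both genes (color, log scale, with the ratio printed), for each pair of genes on the axes; squares below the diagonal are cells of the normalized table and those above are the other cells of the library. Dll1 with Dll3 has the highest ratio in both, 2.80 and 3.32, and Notch3 with Dll3 the lowest, 0.52 and 0.60.

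In the other lines, the ratios had a narrower range, but most pairs with the extreme ratios of CN4 could not be assessed there. Pairs assessed in CN4 too were not always closer to 1. Hes1 and Hes5 had 1.45 in KN1 and 1.08 in CN4, and Hes6 and Hey1 had 0.728 in XN1 and 0.891 in CN4. The highest in XN4 was that of Notch1 and Hes1, 1.17 (1.04 to 1.31), and the lowest was that of Notch3 and Jag1, 0.946. The ratio of Notch1 and Hes1 was 1.14, with the interval above 1, in the 4814 other cells of XN4. In XN1, the lowest ratio was 0.728, that of Hes6 and Hey1, the highest was that of Notch3 and Dll1, captured together in 28 cells compared with 22.4 expected, and every interval included 1. In KN1, they ranged from 0.871 for Notch2 and Hes6 to 1.45 (1.1 to 1.86) for Hes1 and Hes5.

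A small set of CN4 cells was rich in the Delta-like ligands. Sox10, a marker of oligodendrocyte precursors chosen for this comparison after its values were seen, was captured in 70 CN4 cells. Dll1 was captured in 52.9% of these cells (40.6% to 64.9%) and in 12.2% of the others, and Dll3 in 50% (37.8% to 62.2%) and 7.84%. Hes1 was captured in 12.9% (6.05% to 23.0%) and 45.9%. The cells with Sox10 had fewer reads, a median of 4661 compared with 6615. Without them, the ratio of Dll1 and Dll3 in CN4 was 2.91, and that of Dll3 and Hes1 was 0.609.

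Cell cycle classes were defined by 12 G2-M genes, with cells that captured at least 3 of them after thinning as G2-M cells and those with 0 as cells without G2-M transcripts. The share of G2-M cells was 52.3% in CN4, 28.7% in KN1, 26.5% in XN1 and 20.9% in XN4, and 814, 1246, 769 and 794 cells of these lines, in the same order, lay between the classes and were left out. Of the 976 G2-M cells of KN1, 428 captured exactly 3 of the 12 genes. G2-M cells of KN1 held a median of 919.5 genes, compared with 688 in cells without G2-M transcripts. These medians were 1863 and 1819 in CN4, 1865 and 1784 in XN1, and 1749 and 1605.5 in XN4. The part of this gap in the KN1 values was not tested. Of the genes with at least 10 RPM in 1 class, none of 6 in XN4 and none of 9 in KN1 differed by 2-fold, where 12.3% and 11.7% of all genes did. In XN1, 1 of 8 genes, Hes5, was higher in G2-M cells at 16.5 RPM, compared with 7.55, while 10.4% of all genes differed by 2-fold. In CN4, 1 of 10, Dll3, was lower in G2-M cells at 22.3, compared with 56.9, while 7.46% of all genes differed. With so few genes, these counts cannot be set apart from the shares over all genes. Dll3 was captured in 5.02% of G2-M cells of CN4 (4.02% to 6.19%) and in 9.68% of cells without G2-M transcripts (7.58% to 12.1%), a difference below 2-fold. Below 2-fold, the levels that differed by at least 1.5-fold went both ways. Lower in G2-M cells were Notch3 in XN4 (1.72-fold) and XN1 (1.52-fold), Hes6 in XN4 (1.82-fold), and Dll1 in CN4 (1.54-fold) and KN1 (9.93 RPM compared with 19.4). Higher were Hes1 (1.55-fold) and Hey1 (1.72-fold) in KN1. The intervals on reads did not overlap for these genes, but those on shares of cells did for Hes6 in XN4 and for Dll1 in KN1 and CN4. At least 1.5-fold apart between the classes were 29.9% of all genes in XN4, 29.2% in KN1, 26% in XN1 and 19.3% in CN4.

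**Figure D5:**
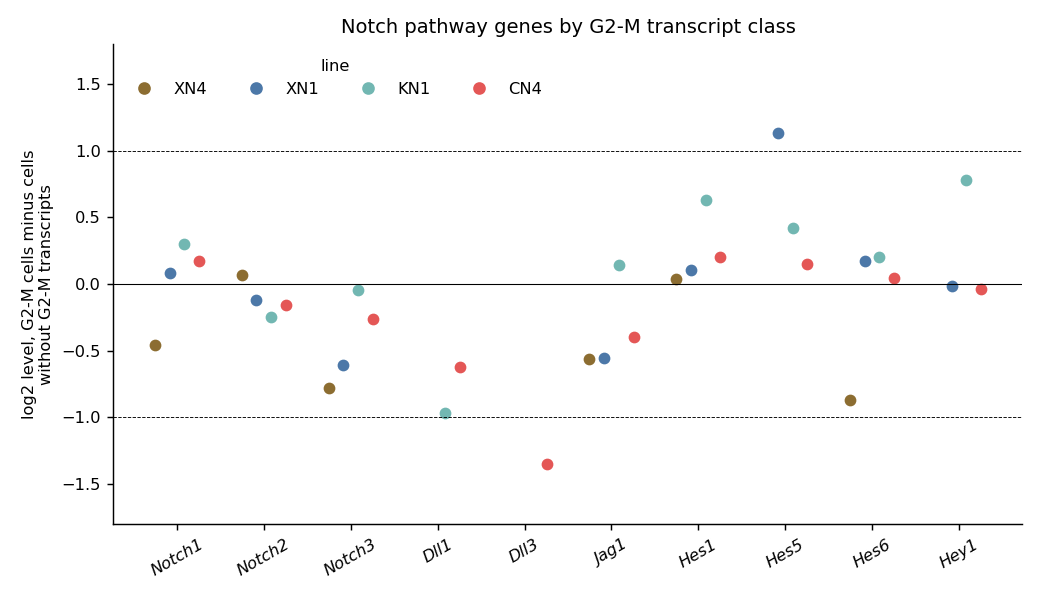
Log2 level in G2-M cells minus that in cells without G2-M transcripts (vertical axis) for each gene and line with at least 10 RPM in 1 class; dashed lines mark 2-fold. Hes5 in XN1 and Dll3 in CN4 are the points beyond 2-fold.

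The genes most like each member over cells were also sought. For members captured in at least 10% of thinned cells of a line, no other gene reached a Pearson correlation of 0.2, so that none is named. In these sparse reads, a weak correlation does not show that genes vary separately.

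Some values have limits set by position. Annotated genes on the opposite strand overlap Notch1, Notch3, Dll1 and Hes5, and whether reads were counted by strand is not given in the sources used here. On the same strand, Mir6996 overlaps Notch1, and Gm42819 and Gm42820 overlap Notch2. With every cell of the full tables of XN4, XN1 and CN4, the shares of cells with a read differed from those of the normalized tables by at most 4.23 percentage points, for Notch3 in CN4.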

How the data were processed

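Single-cell RNA-seq libraries of 4 NSC lines were analyzed. For 3 lines (XN4, XN1, CN4), a count of reads per gene and cell was deposited, made with the BD Rhapsody WTA pipeline (version 1.12.1, GRCm38, GENCODE M19, introns counted). Deposited for every line was a table on the natural log scale, ln(1 + 10000 × reads / total), of randomly chosen cells, made by the authors with Seurat (4.3.0). These were turned back into reads, all whole within 0.01. Genes not listed for XN4, XN1 or CN4 were taken from the count tables of the same cells. The pipeline settings of KN1 are not given in the sources used here.

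Analyses used Python 3.11.15 with SciPy 1.17.1 and scanpy 1.11.5, and were tested on simulated data. Genes with at least 10 RPM in 1 of both lines were counted past 2-fold; levels at 0 were set to 3 reads. Intervals are exact 95% Poisson (reads) or binomial (cells). Doublets were scored with Scrublet, which marked 0 to 6 cells of a line and so did not work, and no cell was removed. All 10 members are named, and of 46 other pathway genes Rbpj, Lfng, Nrarp and the 3 with the largest differences in each direction. Of the pairs of members, 14 set ones and the highest and lowest ratio of each line are named, with others of Dll1 and Dll3 chosen after their values were seen. The members and lists were chosen with earlier results of these data known. Alternatives changed the level measure, depth, scaling, fold, filter, cells and strata.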

Additional observations from a re-analysis of the deposited data

How the results depend on the processing

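Each line was 1 library, so that no result has a replicate check, and depth limits most Dll1, Dll3, Hes5 and Hey1 values outside CN4. No paired analysis was possible because each group holds 1 sample. Of 540 member differences between lines under alternatives, 327 stayed within the counting error of the value reported and 212 moved further. The sign changed in 29, of which 18 involved KN1 and 21 were by shares of cells. Of differences counted as 2-fold, 1 changed sign, that of Hes6 between XN4 and XN1, which was 0.56 (log2) by the share of cells with at least 2 reads. The cause of this and of the changes below was not tested beyond the construction of each alternative.

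The share of all genes that differed by the same rule stands in parentheses after each count. At a 3-fold limit, the number of members that differed was 3 for XN4 and XN1 (18.6%), 1 for XN1 and KN1 (27.6%), 4 for XN1 and CN4 (7.75%), and 2 for CN4 and KN1 (22.1%). At 1.5-fold, it was 6 for XN1 and KN1 (67.9%) and 8 for CN4 and KN1 (63.6%). With cells without G2-M transcripts only, an alternative added after the data were seen, it was 3 for XN4 and XN1 (36.7%). By the share of thinned cells, it was 5 for XN1 and KN1 (65.4%) and 9 for CN4 and KN1 (66.9%). By the share of cells with at least 2 reads, it was 4 (51.7%) and 9 (52%). Median-of-ratios scaling gave 1 for XN1 and KN1 (49.6%). The counts were 4 to 7 for XN4 and KN1 (28.2% to 73.2%) and 6 to 7 for XN4 and CN4 (20.2% to 51.3%). These counts stayed within 1.5 times of the value reported, while the shares of all genes varied as given.

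Between G2-M classes, a cut of 5 G2-M genes gave 1 member in XN4 (14.3%) and 1 in KN1 (21.9%). A 1.5-fold limit gave 3 in KN1 (29.2%) and 2 in XN4 (29.9%), XN1 (26%) and CN4 (19.3%) each. Without the 6% of cells of highest doublet score, there was 1 in XN4 (13.3%). No thinning gave 2 in CN4 (7.31%), 1 in KN1 (9.27%) and 0 in XN1 (9.09%), and shares of cells gave 1 in KN1 (12.8%) and 0 in CN4 (6.14%).

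For pairs past the co-capture ratio, requiring at least 2 reads gave 1 in XN1 and 1 in KN1. A lower ratio limit gave 5 in CN4, 2 in KN1 and 1 in XN1. Thinning gave 1 in KN1, as did leaving out cells of high doublet score. The count of CN4 was 2 or 3 under all other alternatives run, the cells outside the normalized table and those without Sox10 (both added after the data were seen) included. The share of all pairs of genes past the ratio was not computed under these alternatives, so that their counts have no background to be read against.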
